A study of Mus musculus with 3 samples.

Results

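A stable C2C12 line carrying lentiviral Linc-RAM was set directly against a stable C2C12 line carrying a short hairpin RNA to Linc-RAM (sh-Linc-RAM), with 1 library each. Genes were joined on their symbols and kept where the mean over the overexpression and knockdown libraries was at least 1 RPKM (reads per kilobase of gene, scaled to the depth of the library), which left 10170 of 22068 genes, or 46.1%. A further 9130 genes were listed at 0 in both libraries, and 2768 lay above 0 but below the minimum. C2C12 is a mouse myoblast line that fuses into myotubes when serum is lowered. All the lines were infected with lentivirus and selected with blasticidin, and polyadenylated RNA was taken 12 h after the change to differentiation medium with horse serum. An empty vector line, also 1 library, was sequenced with them and is given here beside the other values but is not a denominator. The comparison asks how far the transcriptome of the line given more Linc-RAM lay from that of the line in which Linc-RAM was targeted. No difference has a replicate check, and the lentiviral line and the condition cannot be told apart.

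Linc-RAM is an RNA of skeletal muscle that the study describes as a long noncoding RNA and examined for its binding to MyoD. According to the study, the transcript also encodes a micropeptide, myoregulin, of which its effect on differentiation was independent. Differentiation of myoblasts is led by the myogenic regulatory factors, of which MyoD and Myf5 mark the committed myoblast and myogenin the entry into differentiation. These proteins bind the E-box, the DNA motif CANNTG, mostly together with E proteins. In the first hours after serum is lowered, cells leave the cell cycle and then switch on adhesion, fusion and contractile genes.

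Linc-RAM itself, listed as 2310015B20Rik on chromosome 10 of mm9, had a value of 1.07 RPKM with overexpression, which is 1 read at the smallest length that fits, and was listed at 0 with knockdown and with the empty vector. Its ratio therefore had a counting interval from 0.0229 upwards without limit, and the targeted gene does not check the labels. The read totals recovered from the RPKM values were 2105513 for overexpression and 1878146 for knockdown. By these the knockdown library held 89.2% of the depth of the other, while the control library held 5130481 reads. The median gene compared had 37 reads with overexpression and 32 with knockdown. Each ratio below is overexpression over knockdown unless the gene was lower with overexpression, in which case the fold is knockdown over overexpression. The range in brackets is a 95% Clopper-Pearson interval computed from the recovered reads, which covers counting error only and says nothing of the spread between cultures.

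Most genes lay close together in both libraries. The median log2 ratio was 0.02, and 72.9% of the genes differed by less than 1.5-fold. With overexpression, 609 genes were at least 2-fold higher (5.99% of the genes compared) and 531 were at least 2-fold lower (5.22%). Whatever the fold, the interval left out 1 for 997 genes that were higher (9.8%) and 836 that were lower (8.22%). Among genes 2-fold apart it left out 1 for 368 higher genes (3.62% of all genes compared) and 286 lower ones (2.81% of all). The intervals were computed gene by gene and were not corrected for the number of genes compared. Counting error alone would therefore place some unchanged genes in each of these counts, so not every gene counted can be taken to differ between the libraries. The higher genes included 24 that were listed at 0 with knockdown, and the lower ones 21 listed at 0 with overexpression. Differences of at least 4-fold were seen for 128 higher and 97 lower genes, and of at least 8-fold for 58 and 37. The ratios nearest to the criterion were 2.0003 inside and 1.996 outside it for higher genes, and 2.002 and 1.993 for lower genes.

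**Figure D1:**
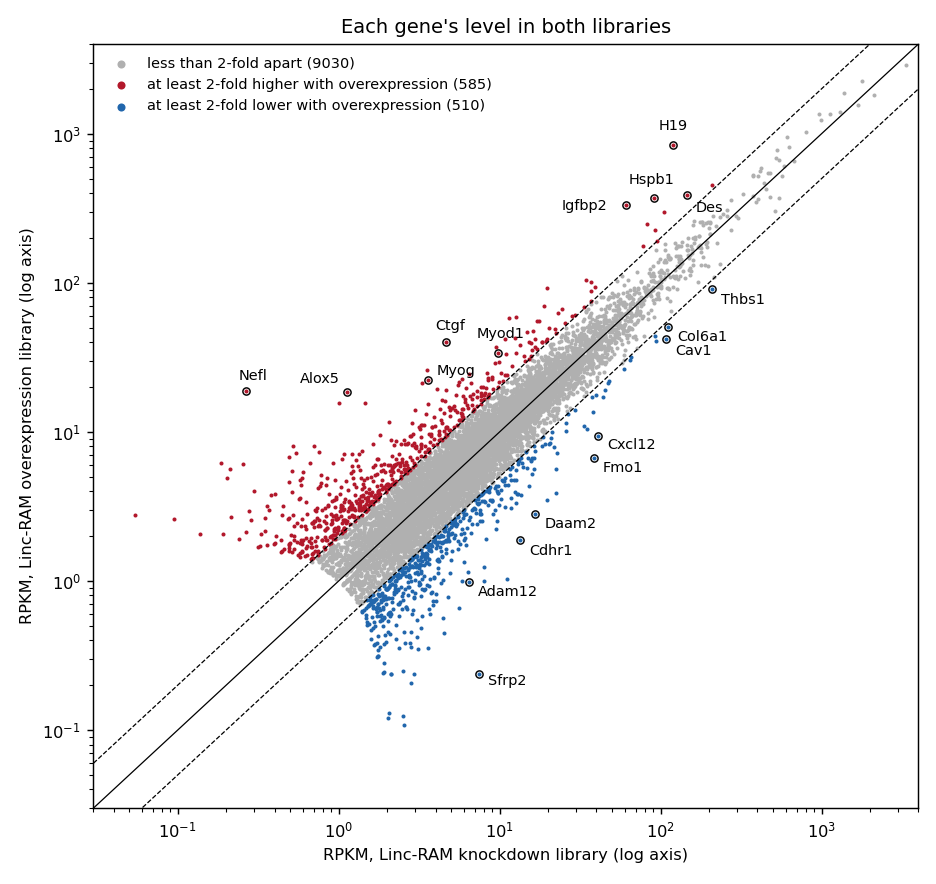
RPKM of each gene in the knockdown library (horizontal, log axis) and in the overexpression library (vertical, log axis), with dashed lines at 2-fold; the 45 genes listed at 0 in either library are not drawn. The 585 red genes and 510 blue genes are mostly of low level, and among abundant genes those above the upper line, such as H19 and Des, stand farther out than those below the lower line, such as Thbs1.

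The share of genes apart fell with the level. Between a mean of 1 and 2 RPKM, 13.1% of 1331 genes were higher and 16.0% were lower. Between 10 and 30 RPKM these shares were 3.22% and 1.47% of 2451 genes. Of the 178 genes at 100 RPKM or more, 10 were higher and 1 was lower. The minimum on the mean keeps a low gene more readily when it is high in 1 of the libraries. For most lists below, the counts of higher and lower members at a mean of at least 5 RPKM follow, in that order. That minimum is on the same mean, so it too keeps genes through 1 library, such as Nefl at 18.8 against 0.266 RPKM. These counts describe the dependence on level and do not remove the effect of the filter. Over all 5897 genes of that level 203 were higher (3.44%) and 124 lower (2.10%). Over all genes compared, 52.1% had a ratio above 1 and 47.9% below.

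Among the myogenic regulatory factors and their partners, Myog and Myod1 were higher with overexpression and no other member was 2-fold apart. Of 19 listed genes, 12 were compared and the median log2 ratio was 0.36. Myog, which encodes myogenin, stood at 22.1 RPKM with overexpression, 3.60 RPKM with knockdown and 3.95 RPKM in the control, a ratio of 6.15 (95% interval 3.15 to 13.4). The knockdown and control values of Myog were thus close together, and the overexpression library stood apart. Myod1, which encodes MyoD, was at 34.1, 9.76 and 16.7 RPKM in the same order, a ratio of 3.49 (2.38 to 5.25), with the control between the others. Myf5, the other early factor, was at 15.7 against 10.5 RPKM (1.5-fold, 1.01 to 2.27). The E proteins, which pair with these factors, did not share a direction. Tcf3 was at 16.3 against 11.7 RPKM and Tcf12 at 19.1 against 23.2 RPKM. Tcf4 was 1.76-fold lower with overexpression (1.48 to 2.11). The homeobox factor Six4 and its Eya partners, which act upstream of the myogenic factors, stood at 10.2 against 10.7 RPKM for Six4, 5.10 against 8.96 for Eya4 and 1.65 against 1.23 for Eya1. The MEF2 genes, cofactors of the myogenic factors, stood at 9.93 against 12.4 RPKM for Mef2a and 11.2 against 8.01 for Mef2d. Among chromatin remodelling subunits, Smarca4 was at 13.5 against 13.2 RPKM and Smarcd3 at 6.06 against 6.79, and neither interval left out 1. The microRNA genes Mir206, Mir133a-1, Mir133a-2 and Mir133b, which poly(A) libraries hardly sample, were listed at 0 in both libraries.

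The E-box is the motif through which MyoD and myogenin act, so the 250 bases before the start of 5 muscle genes that were higher and of 3 genes that were lower with overexpression are shown. They are from RefSeq on the GRCm38.p6 build, 5′ to 3′ on the strand of the gene, with each CANNTG in capitals. The windows are chr1:134289754-134290003 (forward strand) for Myog, chr1:75360042-75360291 (forward) for Des, chr8:45885237-45885486 (forward) for Pdlim3, chr8:122848124-122848373 (forward) for Cdh15, chr2:114052876-114053125 (reverse) for Actc1, chr10:76726045-76726294 (reverse) for Col6a1, chrX:143827413-143827662 (reverse) for Capn6 and chr6:117168285-117168534 (forward) for Cxcl12.
Myog: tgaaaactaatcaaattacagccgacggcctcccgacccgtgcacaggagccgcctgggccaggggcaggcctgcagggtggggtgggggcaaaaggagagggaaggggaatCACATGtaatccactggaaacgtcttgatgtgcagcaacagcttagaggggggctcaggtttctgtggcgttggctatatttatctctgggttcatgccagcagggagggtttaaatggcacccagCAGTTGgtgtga
Des: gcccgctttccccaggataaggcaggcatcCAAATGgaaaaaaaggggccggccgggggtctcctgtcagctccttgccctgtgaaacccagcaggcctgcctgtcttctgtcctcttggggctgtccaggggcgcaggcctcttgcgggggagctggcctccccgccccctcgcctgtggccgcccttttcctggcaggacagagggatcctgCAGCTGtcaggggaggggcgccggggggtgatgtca
Pdlim3: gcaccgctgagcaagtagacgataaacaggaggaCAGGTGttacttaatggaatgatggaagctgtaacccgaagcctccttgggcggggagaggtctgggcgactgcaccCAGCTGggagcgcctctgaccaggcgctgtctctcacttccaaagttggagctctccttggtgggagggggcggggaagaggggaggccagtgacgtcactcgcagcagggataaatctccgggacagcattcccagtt
Cdh15: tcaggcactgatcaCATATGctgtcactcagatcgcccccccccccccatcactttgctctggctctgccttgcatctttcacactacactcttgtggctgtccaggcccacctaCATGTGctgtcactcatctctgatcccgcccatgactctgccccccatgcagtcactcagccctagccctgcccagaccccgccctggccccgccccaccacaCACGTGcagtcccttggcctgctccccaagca
Actc1: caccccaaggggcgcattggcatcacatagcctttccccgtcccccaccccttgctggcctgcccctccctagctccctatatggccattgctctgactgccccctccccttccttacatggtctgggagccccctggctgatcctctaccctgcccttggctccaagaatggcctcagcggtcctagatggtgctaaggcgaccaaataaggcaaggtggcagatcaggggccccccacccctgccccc
Col6a1: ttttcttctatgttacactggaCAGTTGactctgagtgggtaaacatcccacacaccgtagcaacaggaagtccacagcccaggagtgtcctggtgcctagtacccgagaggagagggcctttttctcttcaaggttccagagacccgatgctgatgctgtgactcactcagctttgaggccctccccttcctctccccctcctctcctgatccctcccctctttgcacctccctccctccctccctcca
Capn6: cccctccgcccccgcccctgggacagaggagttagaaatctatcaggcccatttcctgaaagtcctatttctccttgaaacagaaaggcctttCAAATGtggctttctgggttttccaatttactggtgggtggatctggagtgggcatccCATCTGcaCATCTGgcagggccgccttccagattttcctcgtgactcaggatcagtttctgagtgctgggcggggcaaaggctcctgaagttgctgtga
Cxcl12: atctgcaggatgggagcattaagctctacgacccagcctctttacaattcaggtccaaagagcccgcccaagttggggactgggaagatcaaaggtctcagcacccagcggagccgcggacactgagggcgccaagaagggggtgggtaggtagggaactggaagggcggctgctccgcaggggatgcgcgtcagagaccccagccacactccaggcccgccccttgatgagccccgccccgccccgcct
In these windows, of the higher genes Myog, Des and Pdlim3 had 2 E-boxes each, Cdh15 had 3 and Actc1 had 0, and of the lower genes Capn6 had 3, Col6a1 had 1 and Cxcl12 had 0. Of genes examined likewise but not shown, the higher Hspb1 had 2, the higher Ankrd1 and Igfbp2 had 1 each and the lower Daam2 had 0. E-boxes were thus present and absent in both directions. Over the 8175 genes with a RefSeq promoter, CANNTG, which reads the same on both strands, was present in 54.9% of these windows, in 56.4% of the 477 higher genes and in 61.3% of the 408 lower genes. The E-box CAGCTG, which is contained in that count, was in 11.1% of all windows, 13.2% of those of higher genes and 13.0% of those of lower genes. The E-box CAGGTG, counted on either strand, was in 13.3%, 14.7% and 11.3%. The A/T-rich MEF2 box was searched only as CTA, 4 bases of A or T, then TAG, so looser matches were not counted. It was in 0.367% of all windows and in 4 windows of lower genes, or 0.980%. Among higher genes it was in 7 windows, or 1.47% (Atf3, Ckb, Jun, Kbtbd10, Klf2, Mcoln1 and Synpo2l, named after their values were seen). The shares of higher and lower genes were thus alike for CAGCTG, while CAGGTG was somewhat more frequent in higher than in lower genes. CANNTG was most frequent in lower genes, at 61.3% against 54.9% of all windows. None of these differences was tested.

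Sarcomere and Z-disc genes, which build the contractile apparatus, were higher with overexpression in 13 of 26 cases, where 5.99% of all genes compared were. Of 74 listed genes 26 were compared, and none of these was 2-fold lower. The median log2 ratio was 0.92. Over the 14 members at 5 RPKM or more, however, the median was 0.02 with 5 higher, so the median rests on genes of low level. The most abundant of the higher members, Des, the intermediate filament protein desmin, was at 386 RPKM with overexpression, 145 with knockdown and 291 in the control (2.66-fold, 2.42 to 2.93). Ankrd1, an ankyrin repeat protein of stressed muscle, was at 69.4 against 19 RPKM (3.65-fold, 2.76 to 4.89), and Actn3, the alpha-actinin of fast fibres, at 14.0 against 2.98 (4.68-fold, 2.72 to 8.57). For both Z-disc genes Pdlim3 and Synpo2l the knockdown value was close to 1 RPKM. Pdlim3, an actinin-binding LIM protein, was at 15.7 against 1.01 RPKM (15.5-fold, 5.01 to 77.4), and Synpo2l at 7.14 against 1.09 (6.58-fold, 3.13 to 15.9). Myom2, the M-band protein myomesin 2, had 25 reads with overexpression and none with knockdown. With the zero taken as a floor of 3 reads this is 7.43-fold higher, and the counting interval ran from 5.61 upwards. The thin filament protein Tnni1, at 6 reads against 0, was 1.78-fold higher on the same floor. Actc1, cardiac actin, rested on 1 knockdown read, at 3.76 against 0.383 RPKM (9.81-fold, 1.43 to 422). Abundant actin-binding members went the other way or stayed level, such as tropomyosin Tpm1 at 129 against 198 RPKM, which was 1.53-fold lower with overexpression (1.4 to 1.67).

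Genes for contact between cells differed in both directions. Of 32 fusion and contact genes compared, 5 were higher and 3 lower with overexpression (3 and 1 of the 25 at 5 RPKM or more), with a median log2 ratio of 0.12. Itga7, the laminin receptor chain of muscle, was at 55.8 against 17.6 RPKM (3.17-fold, 2.61 to 3.87), and Cdh15, M-cadherin, at 41.8 against 10.9 (3.84-fold, 2.88 to 5.21). Jam2, a junctional adhesion molecule, was 2.44-fold higher (1.91 to 3.12). Both known fusogens of myoblasts were at low levels. Tmem8c, which encodes myomaker, was at 3.18 against 0.357 RPKM on 10 and 1 reads (8.92-fold, 1.27 to 387). Gm7325, the gene of myomixer, had 14 reads against 0, 4.16-fold higher on the floor of 3 reads (interval from 2.96 upwards). In contrast Adam12, a metalloprotease of fusing myoblasts, was at 0.990 RPKM with overexpression against 6.45 with knockdown and 6.65 in the control (6.52-fold lower, 3.81 to 11.9).

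At the neuromuscular junction 2 of 13 genes were higher and 2 lower (0 and 0 of the 6 at 5 RPKM or more). The receptor subunit Chrnd was at 6.04 against 2.20 RPKM (2.75-fold, 1.4 to 5.79), and the foetal subunit Chrng at 2.97 against 0.277 on 1 knockdown read (10.7-fold, 1.58 to 458). The most abundant subunit, Chrna1, stood at 55.6 against 32.9 RPKM (1.69-fold, 1.45 to 1.97), short of the 2-fold criterion. Among 19 genes of excitation-contraction coupling, the calcium channel subunit Cacng1 was higher (68.7 against 33.6 RPKM, 2.04-fold) and the calcium release channel Ryr3 was lower (0.647 against 2.49 RPKM, 3.84-fold). At 5 RPKM or more 2 of 10 were higher and none lower.

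Cell cycle inhibitors were among the higher genes. Of 20 inhibitors, D cyclins and RB family genes, 4 were higher with overexpression and 1 was lower (3 and 0 of the 17 at 5 RPKM or more). Cdkn1a, the p21 inhibitor that accompanies muscle cell cycle exit, was at 93.8 against 38.9 RPKM with the control at 61.3 (2.41-fold, 1.99 to 2.93). Rb1, the retinoblastoma protein, was 2.63-fold higher (1.51 to 4.76), cyclin D3 gene Ccnd3 2.13-fold (1.65 to 2.79) and the antiproliferative Btg2 2.84-fold (1.74 to 4.81). Cdkn1c, the p57 inhibitor, was 5.23-fold lower on 3 and 14 reads (1.46 to 28.4). Genes of DNA replication were more often above than below 1. Of 53 compared, 7 were higher and 1 lower (1 and 1 of the 25 at 5 RPKM or more), 43 had a ratio above 1, and the median log2 ratio was 0.35. The replicative helicase subunit Mcm4 was at 12 against 5.79 RPKM (2.08-fold, 1.42 to 3.11) and E2f2, a transcription factor of S phase genes, at 6.01 against 2.02 (2.97-fold, 1.73 to 5.35). The 63 genes of mitosis lay together, with 1 higher, 0 lower and a median of −0.12. Of 29 p53 targets, some of which are shared with the inhibitors, 6 were higher and 1 was lower (4 and 0 of the 18 at 5 RPKM or more), the higher ones including the polo-like kinase Plk2 (3.11-fold, 2.25 to 4.37) and the apoptotic gene Pmaip1 on 3 knockdown reads (5.95-fold, 1.76 to 31.3).

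Neurofilament and neurite genes had the highest share of members at least 2-fold higher among lists with 10 or more genes compared. This rank is a description, as the lists were written with earlier results of these data known. Members such as Nefl, Nefm and L1cam, below 1 RPKM with knockdown, also passed the minimum only through the overexpression library. Of 45 listed genes, 13 were compared and 9 were higher with overexpression. None was 2-fold lower, but the other 4 had a ratio below 1. The median log2 ratio was 1.98 (1.64 over the 8 at 5 RPKM or more, of which 5 were higher). Nefl, the light neurofilament chain, had the highest ratio of all genes at a mean of 5 RPKM or more. It was at 18.8 RPKM with overexpression on 79 reads, 0.266 with knockdown on 1 read and 3.41 in the control, a ratio of 70.5 with an interval of 12.3 to 2818. Nefm, the medium chain, was at 6.76 against 0.495 RPKM on 3 knockdown reads (13.7-fold, 4.40 to 68.8), and the adhesion molecule L1cam at 4.94 against 0.201 on 2 (24.5-fold, 6.48 to 208). The better covered members had smaller ratios. Tubb3, a neuronal beta-tubulin, was at 92.6 against 19.8 RPKM (4.68-fold, 3.58 to 6.22) and Gap43, a growth cone protein, at 19.3 against 4.09 (4.73-fold, 2.38 to 10.4). Nes, the intermediate filament nestin, which myoblasts also make, was at 227 against 92.2 RPKM with the control at 170.1 (2.46-fold, 2.29 to 2.64). Stmn2, a tubulin-binding protein, differed in pattern, as the control at 81.9 RPKM was above both overexpression at 37.4 and knockdown at 9.51. Of 8 neuron markers, 4 were compared and Elavl3, Snap25 and Rtn1 were listed at 0 in both libraries, while the summed level of the 8 was 82.4 RPKM with overexpression, 14.4 with knockdown and 92.7 in the control. Their part in the result was not tested, and in bulk RNA a change in the number of cells of a type and in the RNA of each cell cannot be told apart. The list of tubulins and microtubule factors also holds Tubb3 and Stmn2. In it the dynein chain Dync1i1 had 41 reads against 0 (12.2-fold higher on the floor of 3 reads, interval from 9.47 upwards). The doublecortin-like kinase Dclk1 was 2.34-fold lower (1.82 to 3.02).

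**Figure D2:**
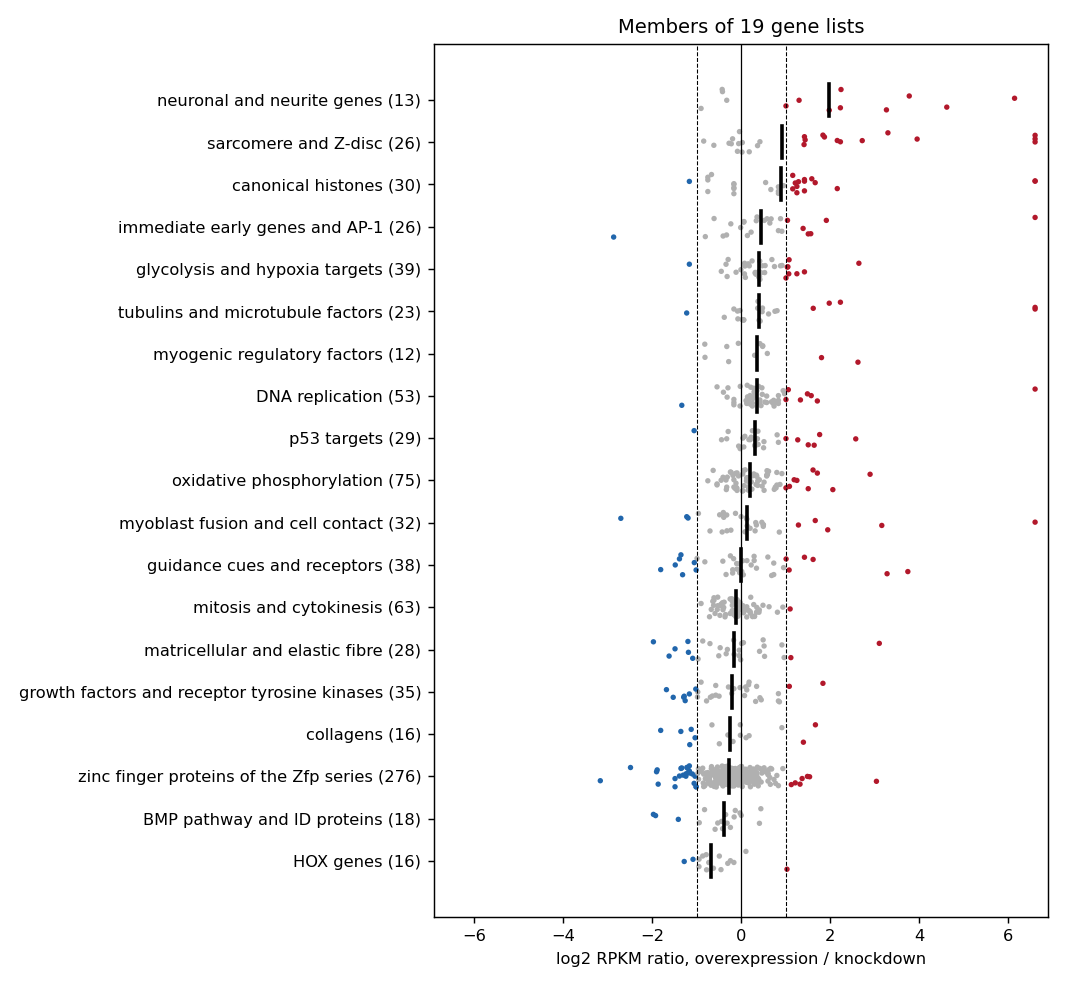
Log2 RPKM ratio of overexpression to knockdown for each member compared of 19 gene lists (number of members in brackets), with a black bar at the list's median, dashed lines at 2-fold and genes listed at 0 in 1 library drawn at the edge. Neuronal, sarcomere and histone genes lie farthest to the right with medians of 1.98, 0.92 and 0.89, and HOX genes farthest to the left with a median of −0.68.

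Among genes of the insulin-like growth factors, Igfbp2 and Igfbp5, secreted proteins that bind these factors, and Igf2bp2, an RNA-binding protein of the Igf2 mRNA, were all higher with overexpression. Igfbp2 was at 334 RPKM with overexpression, 61.2 with knockdown and 117 in the control (5.45-fold, 4.58 to 6.52). Igfbp5 was at 300.0, 104 and 70.3 RPKM (2.88-fold, 2.69 to 3.08), so that its control value lay below both. Igf2bp2 was at 11.6 against 2.05 RPKM (5.65-fold, 3.26 to 10.5). Igfbp3, another binding protein, was 3.04-fold lower (1.22 to 8.57), and the list as a whole had a median log2 ratio of 0.08 over 13 genes. The imprinted noncoding RNA H19, which lies on chromosome 7 of mm9 from 149761434 to 149764048, was the gene of highest level among those at least 2-fold apart. It stood at 845 RPKM with overexpression on 4650 reads, at 119.7 with knockdown on 588 reads and at 697 in the control (7.05-fold, 6.47 to 7.70). Here the overexpression and control values were near each other and the knockdown library stood apart. Other imprinted genes went both ways, with necdin gene Ndn 2.93-fold higher (1.22 to 8.09) and Peg10 3.06-fold lower (2.54 to 3.71).

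**Figure D3:**
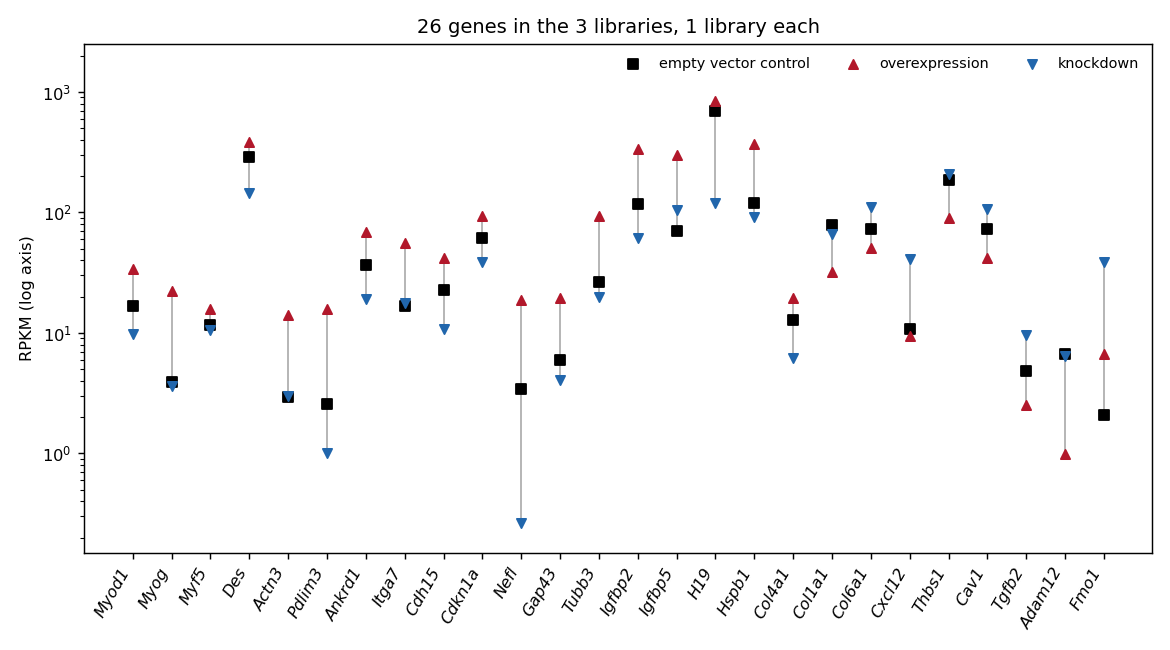
RPKM (log axis) of 26 genes in the control (black squares), overexpression (red upward triangles) and knockdown (blue downward triangles) libraries, 1 library each and joined by a grey line. The control point lies near the knockdown point for Myog and Itga7, near the overexpression point for H19 and Cxcl12, and outside the others for Igfbp5, Adam12 and Fmo1.

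Several Notch genes and early response transcription factors were higher with overexpression, those of Notch at low levels. Of 24 Notch pathway genes, 3 were higher (12.5%) and 1 lower (4.17%), against 5.99% and 5.22% of all genes compared. None of the 16 at 5 RPKM or more was 2-fold apart. The 3 higher ones had means between 2 and 5 RPKM, where 7.85% of all genes were higher. The Notch target Heyl was at 8.07 against 0.705 RPKM (11.4-fold, 5.03 to 32.2), the receptor Notch1 at 8.36 against 1.63 (5.14-fold, 3.45 to 7.91) and the ligand Jag2 at 5.15 against 2.10 (2.45-fold, 1.36 to 4.66). Maml2, a coactivator of the pathway, was 2.69-fold lower (1.66 to 4.48). Of 26 immediate early genes, 6 were higher and 1 lower (5 and 0 of the 20 at 5 RPKM or more), with a median log2 ratio of 0.44. In this list 19 genes had a ratio above 1 and 7 below. Jund, an AP-1 subunit, was at 47.5 against 16.1 RPKM (2.95-fold, 2.32 to 3.80). Another AP-1 subunit, Junb, went the other way at 35.4 against 46.9 RPKM (1.33-fold lower, 1.05 to 1.68). The nuclear receptor Nr4a1 was 7.29-fold lower on 2 and 13 reads (1.65 to 66.5). Both Krüppel-like factors that were 2-fold apart, of 16 compared, were higher, Klf2 at 15.7 against 1.47 RPKM (10.7-fold, 4.34 to 34.2) and Klf4 at 21.5 against 5.60 (3.85-fold, 2.60 to 5.84). Ctgf, a matrix-associated target of YAP, was at 39.9 RPKM with overexpression, 4.65 with knockdown and 21.7 in the control (8.58-fold, 5.46 to 14.2). Of the 25 YAP and TEAD targets compared 2 were higher (8%) and 1 was lower (4%), near the shares of all genes, while 19 had a ratio below 1.

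Small heat shock protein Hspb1, a chaperone of actin and desmin filaments, was at 368 RPKM with overexpression, 91.4 with knockdown and 119 in the control (4.03-fold, 3.38 to 4.83). The inducible Hsp70 genes Hspa1a and Hspa1b were 3.19-fold (2.17 to 4.78) and 2.54-fold higher (1.98 to 3.28). These 2 genes are near-identical copies, so the division of reads between them is uncertain. No other gene of the 36 cytosolic chaperones was 2-fold apart, with a median over the list of 0.19.

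Of 16 collagen genes compared, 2 were higher and 5 lower with overexpression (2 and 4 of the 13 at 5 RPKM or more). Those lower were chains of types I, VI, VIII and XII. Col6a1 was at 50.9 RPKM with overexpression, 111 with knockdown and 72.8 in the control (2.18-fold lower, 1.94 to 2.45), and its partner Col6a2 at 21.3, 47.4 and 28.6 (2.23-fold, 1.85 to 2.70). Col12a1, a collagen that decorates fibrils, was 2.56-fold lower (2.28 to 2.88), Col8a2 3.50-fold (1.96 to 6.59) and Col1a1, of type I collagen, 2.05-fold (1.79 to 2.36). The most abundant collagen, Col3a1, was at 167 against 148 RPKM. Both chains that were higher belong to the basement membrane collagen. Col4a1 was at 19.7, 6.20 and 12.9 RPKM with overexpression, knockdown and control (3.17-fold, 2.46 to 4.14), and Col4a2 at 22.2, 8.45 and 16.4 (2.63-fold, 2.10 to 3.33). These genes lie side by side and share a promoter region. Among laminins and integrins, the laminin chain Lama2 was also higher (3.37-fold, 1.58 to 7.99), at 1.66 against 0.493 RPKM.

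Matricellular genes, whose products bind the matrix and signal to cells, followed both directions with 2 higher and 6 lower of 28 (2 and 4 of the 22 at 5 RPKM or more). Thbs1, thrombospondin 1, was the most abundant of the lower genes at 90.7 RPKM with overexpression, 208 with knockdown and 186 in the control (2.29-fold, 2.07 to 2.54). Spp1, osteopontin, was higher, at 451 against 208 RPKM (2.17-fold, 1.97 to 2.38). Smoc2 (3.07-fold, 2.02 to 4.80) and periostin gene Postn (2.13-fold, 1.58 to 2.89) were lower. Small proteoglycans also divided, with fibromodulin gene Fmod 8.03-fold lower (3.40 to 23.1) and Prelp 4.22-fold lower (2.44 to 7.69), while decorin gene Dcn was 5.65-fold higher on 3 knockdown reads (1.66 to 29.8). The collagen crosslinking enzyme Loxl2 was 4.12-fold higher (2.98 to 5.83) and its relative Loxl4 was 2.43-fold lower (1.47 to 4.12). Of the matrix proteases, the urokinase gene Plau was at 42.6 against 12.5 RPKM (3.41-fold, 2.52 to 4.67) and cathepsin L gene Ctsl at 101 against 37.0 (2.72-fold, 2.24 to 3.33). The gelatinase Mmp2 was lower, at 21.9 against 48.0 RPKM (2.19-fold, 1.78 to 2.71). Caveolin gene Cav1, a membrane scaffold protein, was at 42.0 with overexpression, 108 with knockdown and 73.3 RPKM in the control (2.56-fold, 2.18 to 3.02). Other abundant lower genes were the secreted Olfml3 (2.08-fold), the endoplasmic reticulum calcium-binding Rcn3 (2.28-fold), Nsg1 (2.23-fold) and 2310002L13Rik (2.11-fold).

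**Figure D4:**
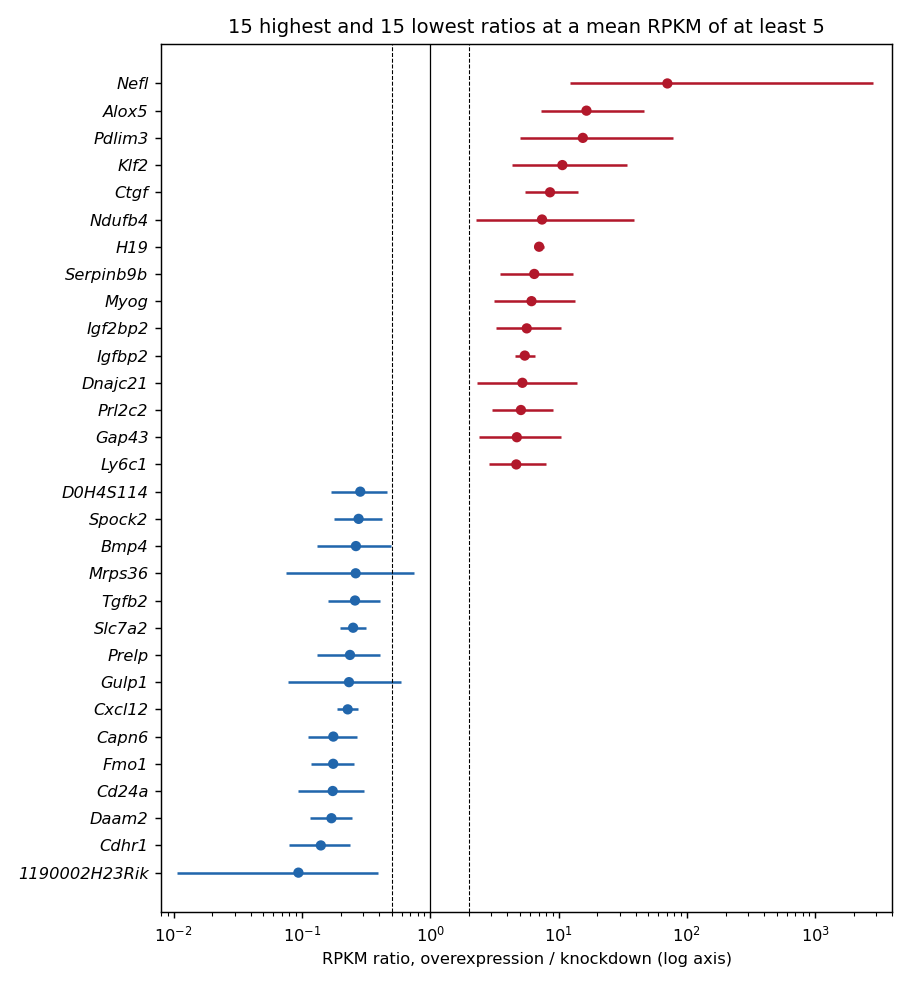
Ratio of overexpression to knockdown (log axis) for the 15 genes of highest and the 15 of lowest ratio at a mean of at least 5 RPKM, with lines for the 95% counting interval and dashed lines at 2-fold. No interval crosses 1, those of H19, Igfbp2, Cxcl12 and Slc7a2 are narrow, and that of Nefl runs from 12.3 to 2818 since it rests on 1 knockdown read.

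Of 18 genes of the BMP pathway, none was higher, 3 were lower and 15 had a ratio below 1, with a median log2 ratio of −0.38. At 5 RPKM or more 1 of 14 was lower. The ligand Bmp4 was at 3.10 RPKM with overexpression, 11.8 with knockdown and 3.03 in the control (3.79-fold, 2.01 to 7.68), and the inhibitory Smad6 at 1.28 against 3.41 (2.66-fold, 1.11 to 7.03). Id3, an inhibitor of myogenic factors that BMP signals induce, was at 17.4 against 33.5 RPKM (1.92-fold, 1.25 to 3.0), just short of 2-fold. The ligand Tgfb2 was 3.86-fold lower (2.45 to 6.29). Of 35 growth factor and receptor tyrosine kinase genes, 2 were higher and 7 lower (1 and 2 of the 19 at 5 RPKM or more). The lower ones included stem cell factor gene Kitl (2.39-fold, 1.78 to 3.25), the receptor Pdgfra (2.45-fold, 1.65 to 3.70) and Vegfc (2.88-fold, 1.52 to 5.79). Of 33 Wnt pathway genes, 2 were higher and 4 lower (1 and 1 of the 22 at 5 RPKM or more). The secreted modulator Sfrp2 was at 0.237 RPKM with overexpression on 1 read and 7.45 with knockdown on 28 (31.4-fold lower, 5.19 to 1284). Dkk2 of the same list was 8.92-fold higher on 20 and 2 reads (2.17 to 78.7). Daam2, a formin of Wnt signalling, was at 2.83 against 16.6 RPKM with the control at 2.42 (5.89-fold lower, 4.1 to 8.66), while its paralog Daam1 was 2.53-fold higher (1.76 to 3.68). Guidance cues were divided nearly evenly, with 6 higher and 7 lower of 38 (3 and 4 of the 25 at 5 RPKM or more). The ligands Sema6a (13.4-fold, 6.27 to 34.1), Sema3c (9.68-fold, 4.48 to 24.9) and netrin gene Ntn1 (3.06-fold, 2.49 to 3.79) were higher. The semaphorin coreceptor Nrp2 was lower, at 13.7 against 38.2 RPKM (2.79-fold, 2.40 to 3.26), as was the ephrin receptor Epha4 (3.50-fold, 1.53 to 8.99).

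Single chemokine, lipid mediator and detoxification genes gave some of the most extreme ratios, but their lists did not share a direction. Of 31 cytokine and chemokine genes 5 were higher and 1 lower (3 and 1 of the 25 at 5 RPKM or more), with a median log2 ratio of −0.14. Of 17 eicosanoid synthesis genes 3 were higher and 3 lower (2 and 1 of 9, median −0.01). Of 45 antioxidant genes 2 were higher and 3 lower (4.44% and 6.67%, against 5.99% and 5.22% of all genes compared). Cxcl12, a chemokine that attracts progenitor cells, was at 9.35 RPKM with overexpression, 41.1 with knockdown and 10.8 in the control (4.40-fold lower, 3.65 to 5.33), so that knockdown stood apart from both others. Its scavenger receptor Cxcr7 was higher, at 40.1 against 15.3 RPKM (2.63-fold, 2.01 to 3.47). Ccl2, which draws monocytes, was at 55.4 against 17.2 RPKM (3.22-fold, 2.07 to 5.19), with the control above both at 60.7. The cytokine Mif was 2.28-fold higher (1.76 to 2.98). Alox5, which makes the precursor of leukotrienes, was at 18.6 against 1.13 RPKM with the control at 1.93 (16.5-fold, 7.35 to 45.9). The next enzyme of that pathway, Lta4h, was 2.40-fold higher (1.47 to 4.07), whereas Alox5ap, the protein that presents the substrate to Alox5, was 2.24-fold lower (1.08 to 4.92). Fmo1, a flavin monooxygenase, was at 6.74 RPKM with overexpression, 38.5 with knockdown and 2.09 in the control (5.71-fold lower, 3.91 to 8.56). Slc7a2, a transporter of cationic amino acids, was 3.99-fold lower (3.16 to 5.08). Other genes among the 15 lowest ratios were Cd24a, a surface glycoprotein (5.75-fold), Capn6 of the calpain family (5.69-fold), the cadherin-related Cdhr1 (7.12-fold), the proteoglycan Spock2 (3.62-fold), the engulfment adaptor Gulp1 (4.30-fold), D0H4S114 (3.51-fold), Mrps36 (3.81-fold on 5 and 17 reads) and 1190002H23Rik (10.7-fold on 2 and 19 reads, 2.57 to 94.3). Among the 15 highest were also the serpin Serpinb9b (6.47-fold), the prolactin-family gene Prl2c2 (5.09-fold), the cochaperone Dnajc21 (5.22-fold) and the surface protein Ly6c1 (4.68-fold). Ly6a, another member of the Ly6 cluster and a marker of progenitor cells, was at 248 against 82.3 RPKM (3.02-fold, 2.47 to 3.70). The Ly6 and Prl2c families hold near-identical copies, so their single values are uncertain.

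Of 39 genes of glycolysis and the hypoxia response, 8 were higher and 1 lower (3 and 0 of the 29 at 5 RPKM or more), 32 had a ratio above 1, and the median log2 ratio was 0.40. The glucose transporter Slc2a1 was at 36.2 against 17.2 RPKM (2.11-fold, 1.62 to 2.76) and phosphofructokinase gene Pfkl at 18.0 against 8.59 (2.10-fold, 1.54 to 2.89). Of 75 respiratory chain genes, 9 were higher and none lower (9 and 0 of the 73 at 5 RPKM or more), with a median of 0.19. Ndufb4, a complex I subunit, had 25 reads against 3 (7.43-fold, 2.27 to 38.5), and the abundant ATP synthase subunit Atp5b was at 245 against 185 RPKM. Of 69 cytosolic ribosomal protein genes, many of which have processed copies that make single values uncertain, 7 were higher and 2 lower (4 and 0 of the 58 at 5 RPKM or more), with a median of 0.19. Canonical histone genes, which are near-identical and whose mRNAs mostly lack a poly(A) tail, had 14 higher and 1 lower of 30 (9 and 0 of the 13 at 5 RPKM or more), with a median of 0.89. Hist1h2ag was at 88.4 against 37.1 RPKM with the control at 74.6. Another RNA without a poly(A) tail, Rmrp, had no read with overexpression and 12 with knockdown, 4.48-fold lower on the floor of 3 reads. It was the only gene of a mean of 5 RPKM or more that was listed at 0 in either library.

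Zinc finger and HOX genes lay on the other side. Of 276 zinc finger genes of the Zfp series, 7 were higher and 24 lower with overexpression (1 and 5 of the 104 at 5 RPKM or more), 198 had a ratio below 1, and the median log2 ratio was −0.27. The best supported member of the higher group was Zfp704 (8.21-fold, 4.81 to 15.1). Of 16 HOX genes, which fix position along the body axis, 14 had a ratio below 1 and the median was −0.68, but 1 was higher, 2 were lower and no interval of a gene 2-fold apart left out 1. At 5 RPKM or more 1 of 8 was higher. The most abundant, Hoxc10, was at 30.3 against 42.6 RPKM (1.41-fold lower, 1.10 to 1.80).

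The ratio moved with gene length. With genes divided into 4 equal groups by the longest length GENCODE gives on mm9, the median log2 ratio was 0.09 in the shortest group, 0.06 and 0.01 in the next groups, and −0.04 in the longest. In the shortest group 9.46% of the genes were higher and 7.0% lower, against 3.84% and 4.44% in the longest. At equal RPKM a shorter gene has fewer reads and so a larger counting error in both directions. The part of this in the shares was not tested. Histone, ribosomal protein and respiratory chain genes are mostly short, and after centring each length group on its own median their medians were 0.80, 0.12 and 0.10, against 0.89, 0.19 and 0.19 before.

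The ratio also differed between chromosomes. The 495 genes of chromosome 10, on which the Linc-RAM gene lies, had a median log2 ratio of 0.22, and 67.7% of them had a ratio above 1. The 562 genes of chromosome 9 had a median of −0.24, and 30.4% had a ratio above 1. The medians of the other chromosomes lay between −0.12 and 0.12. At a mean of 5 RPKM or more the medians of chromosomes 10 and 9 were 0.26 and −0.22. When the genes of each chromosome were divided in order of position into 2 equal parts, the medians were 0.16 and 0.26 on chromosome 10 and −0.21 and −0.27 on chromosome 9, so that the shift ran along both chromosomes. Relative to the control, chromosome 10 had a median log2 ratio of 0.36 with overexpression and 0.13 with knockdown, and chromosome 9 one of −0.06 and 0.19. The line, the condition and the library cannot be told apart here, with 1 line and 1 library each. By the 2-fold criterion, 8.69% of chromosome 10 genes were higher and 4.44% lower, and 2.67% of chromosome 9 genes were higher and 8.19% lower.

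**Figure D5:**
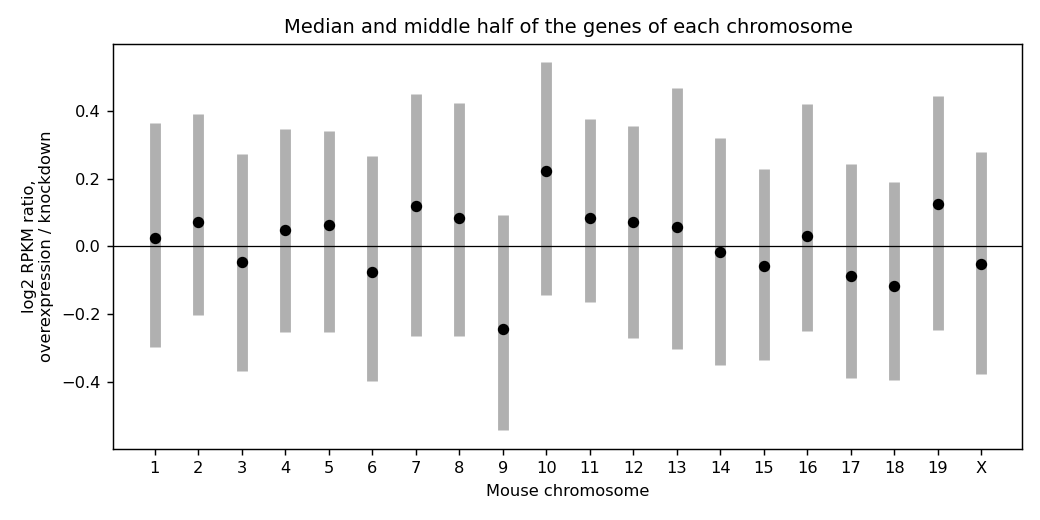
Median log2 RPKM ratio of overexpression to knockdown (points) and the range from the 25th to the 75th percentile of the genes (grey bars) for each chromosome. Chromosome 10 stands highest at 0.22 and chromosome 9 lowest at −0.24.

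The control library was not used to choose the genes. It lay between the overexpression and knockdown values in 484 of the 609 higher genes (79.5%) and in 398 of the 531 lower genes (75%), against 3188 of the 9030 genes less than 2-fold apart (35.3%). A wider gap between both libraries leaves more room for the control, so these shares are a description. Among higher genes above 0 in all 3 libraries the median log2 distance from the control was 0.65 for overexpression and −0.72 for knockdown, and among lower genes it was −0.72 and 0.71. The control was nearer to the knockdown value in 277 of these 584 higher genes and nearer to overexpression in 307. No side of the control thus held most of the difference, although single genes did, as given above for Myog and H19.

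The 151 genes that the study tied to MyoD binding were chosen by the authors for their change in these libraries, so their direction is not independent evidence. All 151 were compared, of which 58 were higher (38.4%) and 27 lower (17.9%) with overexpression, with a median log2 ratio of 0.57.

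Short sets of defining markers and longer lists of genes used by other cell types differed. None of the 6 endothelial markers was compared, and of the 6 macrophage markers 1 was. Of 6 epithelial markers, Krt14 was compared, at 6.29 against 11.9 RPKM. Fibroblast markers summed to 7.59 RPKM with overexpression and 7.98 with knockdown, with Thy1, Lum and Tcf21 at 0 in both. The longer list of fibroblast and tenocyte genes, many of which C2C12 cells make, had 14 of 21 genes compared, 3 higher and 4 lower, and summed to 3699 RPKM with overexpression and 2828 with knockdown. The osteoblast and chondrocyte list, which holds Spp1, summed to 468 against 226 RPKM over 4 genes, and the adipocyte list to 210.3 against 150.2 over 10. Myoblast markers summed to 534.1 and 209.2 RPKM, mainly through Des, and markers of differentiated muscle to 45.8 and 15.6, with Myh3 and Ckm listed at 0 in both.

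In several other lists the share of members 2-fold apart was near or below that of all genes (11.2%). No aminoacyl-tRNA synthetase of 22 was 2-fold apart, although 19 had a ratio above 1. Of 38 endoplasmic reticulum chaperones 1 was higher, of 48 splicing regulators 1, and of 50 translation factors 3. Of 39 genes of cholesterol and fatty acid synthesis 1 was lower and none higher. Of 36 chromatin remodellers 3 were higher and 1 was lower (0 and 0 of the 22 at 5 RPKM or more), the latter the ATPase Smarca2 at 1.01 against 4.46 RPKM (4.40-fold, 2.36 to 8.81). Of 55 histone and DNA modifying enzymes 2 were lower, including the deacetylase Hdac7 (2.29-fold, 1.77 to 3.0). Of 153 solute carriers 7 were higher and 9 lower, shares near those of all genes.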

How the data were processed

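RNA-seq of 3 C2C12 libraries was used, from lines given Linc-RAM, sh-Linc-RAM or an empty vector, with 1 library per label. Reads were aligned by the authors with TopHat 1.4.1 against mm9, and they deposited 1 RPKM value per gene symbol, computed with DEGSeq. Their gene annotation and treatment of multiply mapped reads were not given in the sources used here. The members and gene lists were chosen with earlier results of these data known.

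Overexpression and knockdown values were joined on symbols, kept at a mean of at least 1 RPKM, and called apart at 2-fold, with genes listed at 0 in 1 library included. RPKM hides depth, so the read totals were recovered as those at which low values become whole reads at GENCODE lengths (22.9% of 1500 low genes tested in the control, against a median of 0% at other totals). Multiples of a total also give whole reads. The smallest total that reached 0.85 of the best share was therefore taken, and the totals are estimates. Reads per gene came from an annotated length for 24.6% of the genes compared, and for 75.4% from the smallest whole length of at least 200 nt that fits within a relative tolerance of 1e-05, which gives the fewest reads and, if anything, too wide an interval. Ratios received exact Clopper-Pearson 95% intervals, which cover counting error only, and genes at 0 a floor of 3 reads. A fold on that floor takes the reads of the other library as exact, so it is not a lower limit. With 1 library per condition no test of the conditions was made. The scripts were tested on simulated data.

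Named genes were those the study names, the 15 highest and 15 lowest ratios at 5 RPKM or more, the 8 most abundant genes apart in each direction, genes of that level listed at 0, up to 6 members per list of largest ratio with an interval leaving out 1, the 2 most abundant members of lists with few genes apart, and all myogenic factors. Some genes that this rule names are not reported here. Alternatives covered filters, added constants, scaling, thresholds, recovered reads and RNA class, with centring by chromosome and length added after seeing the data. Intervals were computed with scipy 1.17.1, figures drawn with matplotlib 3.10.9, and tables handled with pandas 2.3.3 in Python 3.11.15.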

Additional observations from a re-analysis of the deposited data

How the results depend on the processing

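The counts of 609 higher and 531 lower genes depended on the filter and threshold. They were 203 and 124 at a mean of at least 5 RPKM, 1518 and 1494 of 12938 genes with no filter, 343 and 232 with 1 RPKM added, 1468 and 1288 at 1.5-fold, and 236 and 177 at 3-fold. They were 244 and 180 where a binomial test of the reads at 0.005 was also asked, which compares 2 libraries and not the conditions, and 385 and 292 among genes with at least 20 reads over both libraries. With 0.5 RPKM added the lower genes numbered 342. Leaving out genes at 0, leaving out RNAs that lack poly(A), scaling by median ratio, upper quartile or TMM, and centring by chromosome or length, which was chosen after seeing the data, kept both counts within 1.5 times. Upper quartile scaling gave 553 higher and 590 lower genes, so the side with more genes depends on the scaling. Of 66 medians of lists and chromosomes, 18 changed sign under at least 1 alternative, 3 of them among the 29 that lay at least 0.2 from 0. The median of the macrophage and leukocyte markers, −1.16 over 3 genes, became 0.28 at 20 reads or more, where 1 gene was left. The 422 ratios of named genes were followed only under added constants and scaling. An equal constant cannot reverse a ratio, and scaling factors of 1.02 to 1.04 cannot reverse a 2-fold one. These alternatives therefore could not test the direction of genes 2-fold apart, and ratios nearer to 1 were not checked for direction. With 1 RPKM added 7 of the 422 moved beyond their counting interval, and with upper quartile scaling 2 did. No library could be left out, as each condition has 1. No paired analysis was possible because each condition has a single library.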
